A study of Mus musculus with 29 samples.

Results

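Short regions marked by trimethylated lysine 27 of histone H3 (H3K27me3) outside protein-coding genes were examined in the mouse cortex at E17.5, a late stage of embryonic neurogenesis. Peaks called in 8 H3K27me3 ChIP-seq libraries that shared 1 bp or more were joined into merged regions. A merged region was taken when it lay on an autosome, had a peak in 2 or more libraries, was under 10000 bp long, overlapped no protein-coding gene body and lay more than 2000 bp from every protein-coding transcription start site (TSS). Of 20496 merged autosomal regions with a peak in 2 or more libraries, 10110 (49.3%) met these limits and are called short intergenic regions. The others were 5224 short regions at protein-coding promoters (25.5%), 4524 short regions inside gene bodies (22.1%) and 638 wide regions (3.1%). The regions were thus selected on the peaks of the same 8 libraries, and the presence of peaks in them describes that choice. Each library was represented in a region by its highest fold enrichment over input DNA there, set to 1 where it had no peak.

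H3K27me3 is deposited by Polycomb repressive complex PRC2 and marks the promoters of developmental regulators that are held silent in a given cell type. In mammals PRC2 is recruited mainly to CpG-rich DNA that is not methylated, and the mark also spreads from such sites into the neighbouring chromatin. Outside genes it lies over start sites of long non-coding RNAs (lncRNAs), over distal regulatory elements that are poised or silent, and in broad blankets around developmental loci. BAF (mSWI/SNF) chromatin remodelling complexes counteract Polycomb complexes on chromatin.

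The study deleted BAF155 (gene Smarcc1) and BAF170 (gene Smarcc2), the core subunits on which BAF complexes depend, by crossing floxed alleles of both with hGFAP-Cre on a C57BL/6J background (dcKO), and compared the pallium of dcKO embryos with that of littermate controls, which the study describes as carrying 1 floxed and 1 wild-type allele of each gene and the Cre. hGFAP-Cre is active in radial glia, first in the medial and later in the dorsal and lateral pallium, so that neurons born earlier and other cell types of the tissue keep both genes. H3K27me3 was measured in 4 control and 4 dcKO libraries against 1 pooled input per genotype, and RNA-seq in 4 control and 3 dcKO pallia and, in a further experiment, in cortices of 4 wild-type embryos given vehicle, 4 dcKO embryos given vehicle and 4 dcKO embryos given a Wnt inhibitor. The sample labels give the same genotype for controls and dcKO in the ChIP-seq and the untreated RNA-seq, so the groups rest on the letter in each sample title, which the study's tables assign to control or dcKO.

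The targeted genes did not separate all RNA libraries by label. Smarcc1 stood at 247.1, 264.0, 269.1 and 248.2 CPM (read counts scaled to library size) in the controls, at 128.0 and 135.3 CPM in the libraries labelled dcKO replicates 3 and 4, and at 245.3 CPM in the library labelled dcKO replicate 2. Smarcc2 in that library was at 669.4 CPM, within the control range of 653.1 to 713.3 CPM. In the treated experiment the library labelled dcKO vehicle replicate 2 had 242.3 CPM of Smarcc1 against 133.0 to 138.0 CPM in the other dcKO vehicle libraries. Most RNA counts and fold changes are therefore given with and without these libraries, and the others only with all libraries. Cortical markers were present in all untreated libraries, with Tbr1, a transcription factor of deep-layer neurons, at 293.3 to 376.3 CPM in controls and at 380.6, 309.6 and 360.5 CPM in the libraries labelled dcKO replicates 2, 3 and 4. Ttr, which marks choroid plexus, ranged from 3.555 to 119.5 CPM in controls and from 3.188 to 6.168 CPM in dcKO. Same-numbered libraries of the 2 RNA experiments had similar values of Ttr and of Cntnap2. Controls 1 to 4 had 4.24, 12.84, 3.555 and 119.5 CPM of Ttr, and WT vehicle 1 to 4 had 3.884, 11.35, 3.139 and 114.1. Untreated dcKO 2 to 4 had 68.79, 167.3 and 182.6 CPM of Cntnap2, and dcKO vehicle 2 to 4 had 70.12, 176.7 and 185.6. Whether they share embryos was not tested, so the 2 experiments are not taken as independent. Of 13 markers of choroid plexus, blood, meninges, endothelium and microglia, 12 were tested. None (0) had an adjusted p under 0.05 (edgeR), with or without the library labelled dcKO replicate 2. With all libraries 0 of 13540 protein-coding genes tested on autosomes passed that limit, so that count cannot set the markers apart. Their part in the results was not tested. The genotype of the ChIP-seq libraries cannot be checked in this way, because the peak lists hold no expression.

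The DNA of these regions fell between extremes, which the densest 200 bp window of CpG dinucleotides in 9 of them shows. The sequences are from the plus strand of GRCm38.p6 in RefSeq, the build also called mm10, 5′ to 3′, with CpG dinucleotides in capitals. The first 3 had a peak in all 8 libraries and lay near the lncRNA Gm21321, the orphan nuclear receptor gene Nr4a2 and the homeobox gene Prox1. The next lies beyond the 3′ end of the Wnt antagonist gene Dkk1. Of the following 2, the region near Cacna2d3 had the lowest CpG content of the regions with a peak in all libraries, and that near Jak1 was mostly repeat. The last 3 illustrate regions seen in 1 kind of library or 1 genotype. The regions near Prox1, Dkk1, Amd2 and Dmrta1 were chosen after their values were seen.
Gm21321 (nearest gene Ulbp1), chr10:7390748-7390947: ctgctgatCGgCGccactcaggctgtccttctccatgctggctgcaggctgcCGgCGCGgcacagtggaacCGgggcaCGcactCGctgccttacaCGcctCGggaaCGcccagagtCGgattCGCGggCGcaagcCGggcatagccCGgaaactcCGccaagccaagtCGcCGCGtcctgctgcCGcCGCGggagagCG
Nr4a2, chr2:57102427-57102626: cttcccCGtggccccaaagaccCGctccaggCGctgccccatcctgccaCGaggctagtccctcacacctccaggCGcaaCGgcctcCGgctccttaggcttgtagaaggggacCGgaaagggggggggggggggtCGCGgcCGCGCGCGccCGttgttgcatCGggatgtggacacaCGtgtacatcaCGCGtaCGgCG
Prox1, chr1:190334257-190334456: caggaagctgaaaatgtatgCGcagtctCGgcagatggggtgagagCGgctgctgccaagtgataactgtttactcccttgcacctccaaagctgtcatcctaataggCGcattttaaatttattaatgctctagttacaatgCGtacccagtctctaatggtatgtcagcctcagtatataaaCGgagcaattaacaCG
Dkk1, chr19:30539583-30539782: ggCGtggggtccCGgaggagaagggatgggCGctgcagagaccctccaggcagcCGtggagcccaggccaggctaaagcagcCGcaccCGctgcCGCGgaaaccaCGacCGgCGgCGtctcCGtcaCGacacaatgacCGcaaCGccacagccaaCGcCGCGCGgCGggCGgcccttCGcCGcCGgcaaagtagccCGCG
Cacna2d3, chr14:28799360-28799559: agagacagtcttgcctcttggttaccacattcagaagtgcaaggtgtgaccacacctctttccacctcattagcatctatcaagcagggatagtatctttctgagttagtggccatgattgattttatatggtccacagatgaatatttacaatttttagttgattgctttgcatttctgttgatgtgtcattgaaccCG
Jak1, chr4:101314595-101314794: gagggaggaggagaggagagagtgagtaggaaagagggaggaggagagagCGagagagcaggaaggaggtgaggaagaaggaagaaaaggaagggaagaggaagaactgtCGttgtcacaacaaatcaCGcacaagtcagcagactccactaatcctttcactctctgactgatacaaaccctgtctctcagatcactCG
Amd2, chr10:35908670-35908869: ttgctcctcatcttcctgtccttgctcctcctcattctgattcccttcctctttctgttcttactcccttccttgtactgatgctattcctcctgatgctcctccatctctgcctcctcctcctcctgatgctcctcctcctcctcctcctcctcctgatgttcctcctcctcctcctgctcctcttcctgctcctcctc
Dmrta1, chr4:89524659-89524858: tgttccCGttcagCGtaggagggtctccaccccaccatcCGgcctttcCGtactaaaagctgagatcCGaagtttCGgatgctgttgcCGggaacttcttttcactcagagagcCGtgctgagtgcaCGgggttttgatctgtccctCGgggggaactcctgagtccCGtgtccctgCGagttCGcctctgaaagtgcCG
Kcnk9, chr15:72568518-72568717: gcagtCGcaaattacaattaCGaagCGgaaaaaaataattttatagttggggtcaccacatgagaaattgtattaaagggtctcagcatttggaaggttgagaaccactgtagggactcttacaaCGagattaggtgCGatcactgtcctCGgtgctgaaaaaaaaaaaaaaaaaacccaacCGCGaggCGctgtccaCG

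The window near Gm21321 held 25 CpG and the whole region of 5653 bp held 272. The Nr4a2 window held 21 CpG and the Dkk1 window 27. By contrast, the richest window of the Cacna2d3 region held 1 CpG, the whole region of 2403 bp held 3, and the window near Amd2 held none (0 CpG) in a stretch made mostly of C and T. The region near Jak1 was soft-masked as repeat over 90.2% of its length, and 77.7% of its 12-base words occurred more than once within it.

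Most short intergenic regions were small and were found in few libraries. Their median length was 977 bp, and 5343 of the 10110 had a peak in exactly 2 libraries, 2467 in 3, 1079 in 4, 682 in 5, 265 in 6, 145 in 7 and 129 in all 8. The median distance to the nearest protein-coding TSS was 48098.5 bp. Of the regions, 17.2% lay within 10000 bp of such a TSS and 34.5% lay more than 100 kb away. At the length limit, the 2 longest regions taken measured 9960 bp (chr13:98528473-98538432) and 9950 bp (chr2:180747840-180757789), and their median fold enrichments over the 8 libraries were 4.03 and 3.81. The nearest regions outside genes beyond the limit measured 10050 bp each (chr17:27410153-27420202 and chr2:27615542-27625591), with medians of 4.07 and 4.35. At the distance limit, regions 2018 and 2020 bp from the TSS of Zscan26 and Zfp105 were taken, each with 3 libraries, and regions 2000 and 1991 bp from the TSS of Uchl1 and Dusp15 were not.

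Regions found in all 8 libraries were longer and less repetitive than those found in 2. Median length went from 712 bp among regions with a peak in 2 libraries to 4994 bp among those in 8, and the median soft-masked share went from 68.8% to 25.1%. A CpG-rich window (200 bp with a GC content of at least 50% and an observed to expected CpG ratio of at least 0.6) was present in 36.8% of the regions in 2 libraries and in 79.8% of those in 8, but in 51.4% of those in 3 and in 39.4% of those in 5. The median observed to expected CpG ratio showed no trend, at 0.235 in 2 libraries, 0.283 in 3, 0.166 in 5 and 0.27 in 8. The start of a lncRNA lay in 1.14% and 15.5% of them, respectively. The change in masking was not even either, since regions in 5 libraries were more masked (45.2%) than those in 4 (31.5%). A longer region has more room for a CpG-rich window and for a start site, and length was not held equal in these shares.

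**Figure D1:**
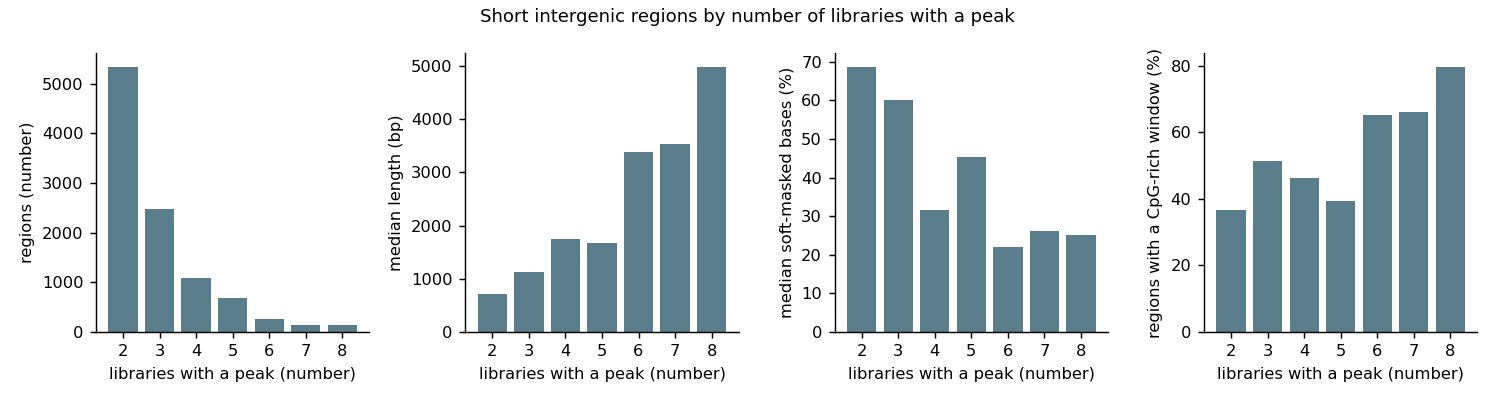
Number, median length (bp), median soft-masked share (%) and share holding a CpG-rich window (%) of the short intergenic regions, by the number of the 8 H3K27me3 libraries with a peak (x axis). The number falls from 5343 regions in 2 libraries to 129 in 8, while the median length goes from 712 to 4994 bp.

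The libraries differed more from each other than the genotypes did. They kept between 12.3% and 66.5% of their tags after duplicates were removed, and 2 controls (replicates 2 and 4) and 2 dcKO libraries (replicates 3 and 4) kept over 30%. Control replicates 2 and 4 and dcKO replicate 3 kept 61.5%, 62.2% and 66.5%, while dcKO replicate 4, at 32.8%, was just over this limit. Control replicates 1 to 4 had a peak in 6444, 2929, 2823 and 2116 of the short intergenic regions. dcKO replicates 1 to 4 had a peak in 5542, 2414, 1478 and 5704. Control replicate 1 and dcKO replicates 1 and 4 thus covered most of the regions, and the ranges of the genotypes overlapped. In 6 libraries a larger share of promoter regions than of short intergenic regions had a peak. Control replicate 3 and dcKO replicate 2 stood apart, with a peak in 27.9% and 23.9% of the short intergenic regions but in only 21.8% and 18.5% of the promoter regions.

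**Figure D2:**
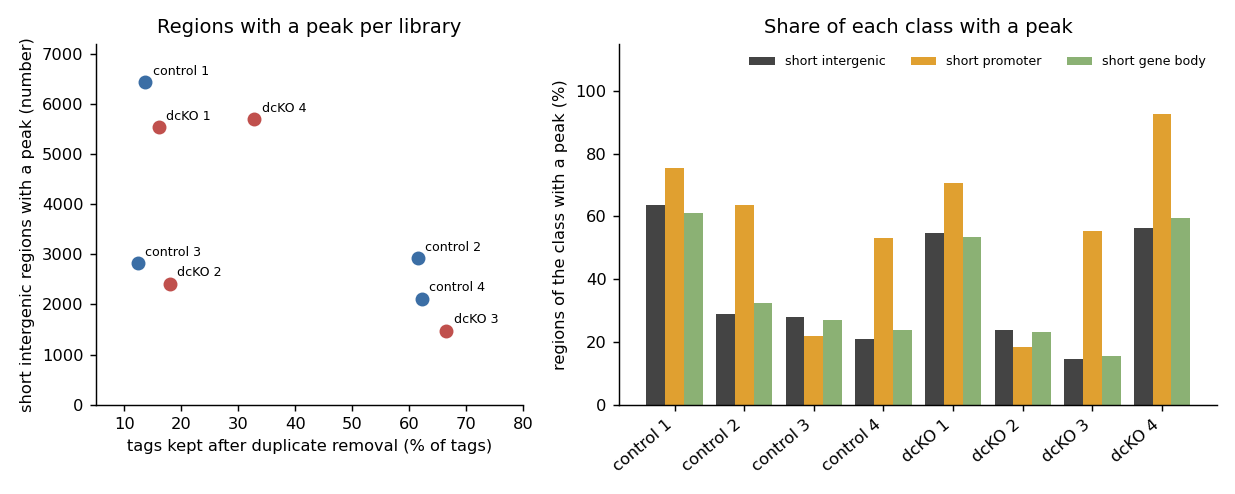
Left, number of short intergenic regions with a peak (y axis) against the share of tags kept after duplicate removal (x axis, %) for each control (blue) and dcKO (red) library. Right, share of the short intergenic, short promoter and short gene-body regions with a peak in each library (%). Control 3 and dcKO 2 are the libraries in which the promoter bar is below the intergenic bar.

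Which libraries held the peaks went with the repeat content of the DNA. Of the short intergenic regions, 3909 (38.7%) had peaks only in libraries that kept under 30% of their tags, against 6.0% of promoter regions and 34.6% of gene-body regions. These 3909 regions had a median length of 530 bp, a median soft-masked share of 90.8% and a median TSS distance of 80692 bp. Another 2115 regions (20.9%) had peaks only in libraries that kept over 30%, and their medians were 1538 bp, 15.8% masked and 29695 bp from a TSS. The remaining 4086 (40.4%) had peaks in both kinds of library and a masked share of 42.9%. Repetition within a region followed the same order. Over 20% of the 12-base words occurred more than once in 70.4% of the regions seen only in low-share libraries, in 36.1% of those seen in both kinds and in 1.2% of those seen only in high-share libraries. For promoter regions this share was 5.9%. Among regions with exactly 2 libraries, the most frequent pair was control replicate 1 with dcKO replicate 1, at 1576 regions (29.5%). Whether mapping or duplicate removal plays a part in these regions was not tested.

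**Figure D3:**
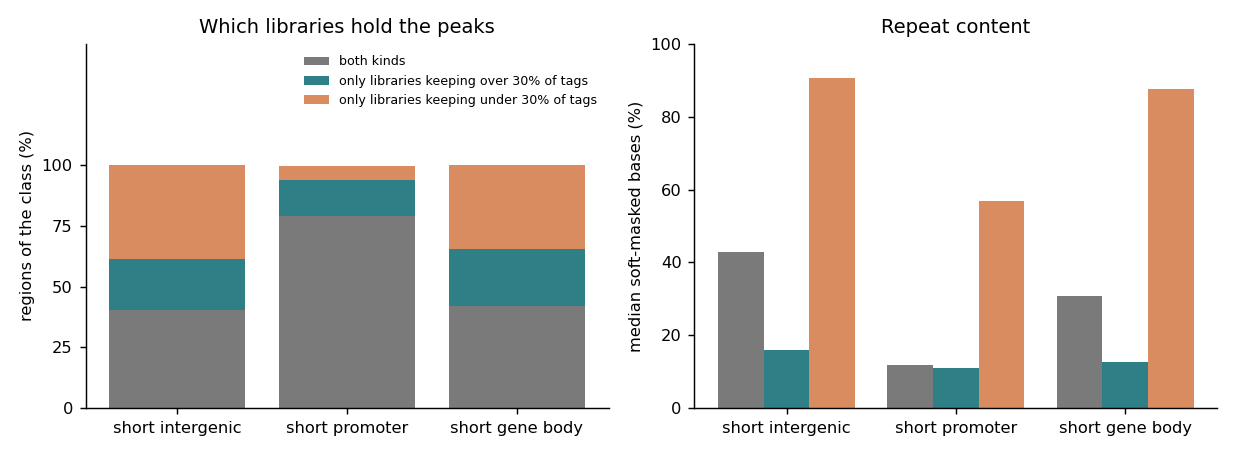
Left, share of the short intergenic, promoter and gene-body regions (%) whose peaks came from both kinds of library, only from libraries keeping over 30% of their tags or only from those keeping less. Right, median soft-masked share (%) of the same sets. Among short intergenic regions the third set makes up 38.7% and is 90.8% masked.

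The region near Amd2 (chr10:35908670-35909154, 485 bp) was the strongest of the 203 regions found in all 4 low-share libraries and in no other. Its fold enrichment was 12.83 and 7.65 in control replicates 1 and 3 and 14.47 and 4.0 in dcKO replicates 1 and 2. The counterpart near Dmrta1 (chr4:89521586-89525182, 3597 bp), a gene of the doublesex-related transcription factor family, was the strongest of the 377 regions found in the 4 high-share libraries alone. It had 5.53 and 4.6 in control replicates 2 and 4 and 4.68 and 5.17 in dcKO replicates 3 and 4. Both regions were present in both genotypes, with overlapping values.

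Short intergenic regions gathered around developmental transcription factor genes. For 935 regions (9.25%) the nearest protein-coding gene was a developmental transcription factor, whereas such a gene was nearest to 3.75% of points placed every 1000 bp along the sequence outside genes. Per Mb of that sequence there were 18.11 regions near such genes and 7.34 overall. The share was 16.5% among regions with a peak in 6 or more libraries, 16.7% among those seen only in high-share libraries and 5.2% among those seen only in low-share libraries. Axon guidance and cadherin genes showed the opposite, being nearest to 2.3% of the regions and 5.52% of the points. Secreted signals and their antagonists (0.97% and 1.0%), receptor and channel genes (1.83% and 2.35%) and olfactory, vomeronasal and taste receptor genes (2.26% and 2.79%) lay closer to their share of the sequence. These shares are descriptions, since neighbouring regions are not independent, and a nearest gene is a position and not a target.

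**Figure D4:**
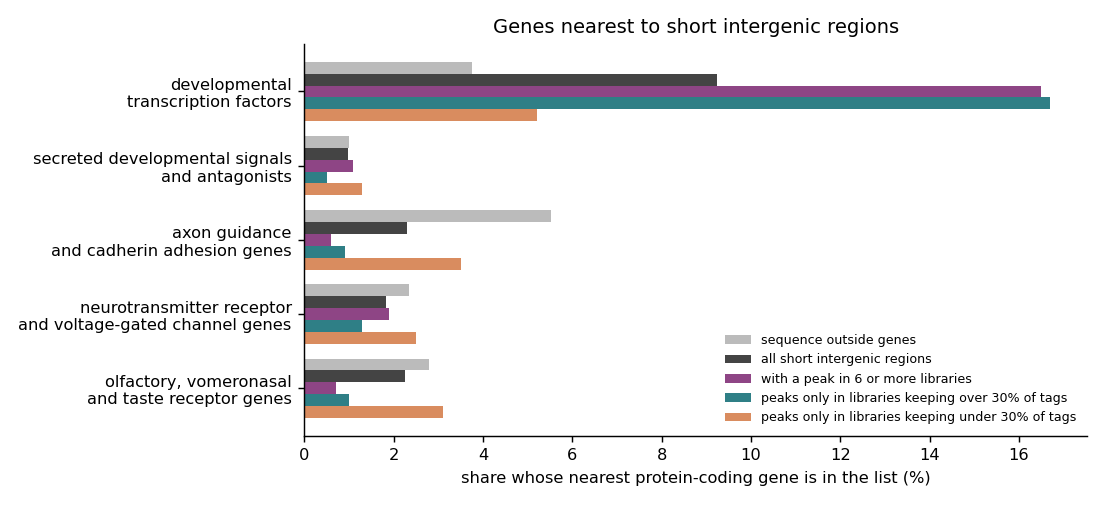
Share (%) of points outside genes, of all short intergenic regions and of 3 subsets of them whose nearest protein-coding gene belongs to each of 5 gene lists. Developmental transcription factors are nearest to 3.75% of the points, 9.25% of all regions and 16.5% of regions with a peak in 6 or more libraries.

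The gatherings were dense at some loci, which are ordered here by their number of regions and not by density. Prox1, a homeobox gene of the dentate gyrus and of interneurons, was nearest to 34 regions in 0.391 Mb of sequence outside genes (87.0 per Mb). The regions spanned chr1:190177196-190447142, from 6482 to 276107 bp from the TSS, and 29 of them had a peak in a high-share library. Gm10330 was nearest to 25 regions (18.7 per Mb), of which none (0) had a peak in 6 or more libraries. Ajap1, which encodes an adherens junction protein, was nearest to 24 (38.9 per Mb). The T-box gene Tbx3 was nearest to 21 (39.6 per Mb) and the forkhead gene Foxb1 to 20 (81.0 per Mb). Loci with fewer regions could be denser, as at Mrm1 (97.9 per Mb) and Lhx1 (97.2 per Mb). Atg7 had 17 regions at 186.8 per Mb, each with a peak in at most 3 libraries. Of the 72 genes nearest to 10 or more regions, 25 (34.7%) were developmental transcription factors, against 39 (1.4%) of the 2754 genes nearest to a single region. The count of regions with a peak at Prox1 varied with the library, at 9, 25, 2 and 23 in control replicates 1 to 4 and at 12, 8, 10 and 23 in dcKO replicates 1 to 4. At Gm10330 it was 21, 1, 5 and 0 in controls and 17, 2, 0 and 20 in dcKO, so control replicates 2 and 4 saw most of the regions at Prox1 and nearly none at Gm10330, and dcKO replicate 4 saw most at both.

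Prox1 itself was expressed in this tissue. Its level was 62.72, 62.92, 48.92 and 70.52 CPM in the controls and 65.77, 60.17 and 49.84 CPM in the libraries labelled dcKO replicates 2, 3 and 4, and the groups overlapped (log2 fold change -0.07, SE 0.13, adjusted p = 0.847, edgeR; without the library labelled dcKO replicate 2, -0.15, SE 0.14, adjusted p = 0.528). In the treated experiment it was at 41.9 to 61.61 CPM with WT vehicle and at 42.94 to 53.54 CPM with dcKO vehicle (log2 fold change -0.14, SE 0.14, adjusted p = 0.896, edgeR; without the library labelled dcKO vehicle replicate 2, -0.16, SE 0.16, adjusted p = 0.812). Foxb1 had at most 0.1354 CPM in every untreated library and was not tested. The only one of the 34 regions nearest to Prox1 with a peak in all 8 libraries, chr1:190330049-190338233, whose richest window is printed above, had a fold enrichment of 4.66, 3.77, 3.78 and 3.82 in the controls and of 6.5, 4.07, 3.88 and 4.79 in dcKO. In bulk tissue, fewer cells of a type and less RNA per cell cannot be told apart, and neither can the cells that carry the mark and those that hold the RNA.

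In sequence the short intergenic regions resembled those of gene bodies more than those of promoters. The median observed to expected CpG ratio was 0.237, against 0.438 at promoters and 0.247 in gene bodies. A CpG-rich window was present in 43.3%, 83.5% and 43.4%, respectively, and the median soft-masked share was 55.4%, 12.1% and 38.4%. In the central 300 bp, letters were searched on both strands: GAGAGAG as a GA repeat, TTCAGCACC as the left part of the RE1 element of the repressor REST, CTTTGAA or CTTTGAT as a TCF/LEF site, and CAGATG or CAGCTG as an E-box. These motifs share no full match with each other. The GA repeat was found in 18.75% of short intergenic regions, 12.75% of promoter regions and 10.08% of 32851 RefSeq promoters of 300 bp. The E-box was found in 23.48%, 30.55% and 30.57%, the TCF/LEF site in 8.32%, 6.30% and 8.65%, and the RE1 part in 0.22%, 0.38% and 0.37%. Such matches are strings of letters and say nothing of binding.

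Where a peak was called, its height was lower outside genes than at promoters in every library. The median log2 fold enrichment over regions with a peak was 2.1189, 1.8144, 2.177 and 1.8159 in short intergenic regions of control replicates 1 to 4 and 2.3897, 1.9682, 2.2386 and 1.9538 in promoter regions. In dcKO replicates 1 to 4 it was 2.1156, 2.0764, 1.9129 and 1.8615 outside genes and 2.433, 2.1735, 2.0813 and 2.4512 at promoters. The mean difference was -0.22 ± 0.17 (SD, n = 8), below 0 in 8 of 8 libraries (two-sided exact sign-flip test, p = 0.00781, adjusted p = 0.0391 over 5 tests), which is the smallest p that 8 libraries allow. It ranged from -0.0617 in control replicate 3 to -0.5896 in dcKO replicate 4. In regions of 1000 to 2000 bp in both classes, a comparison added after the data were seen, it was -0.12 (8 of 8 libraries below 0, exact sign-flip test, p = 0.00781). Against gene-body regions the difference was -0.015 (7 of 8 libraries below 0, exact sign-flip test, p = 0.0156, adjusted p = 0.0391), and at matched length it was -0.011 (4 of 8 libraries below 0, exact sign-flip test, p = 0.344).

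Loss of BAF155 and BAF170 came with no difference in these regions that exceeded the spread between libraries. The mean log2 fold enrichment over all 10110 regions was 1.4037, 0.5317, 0.6257 and 0.3844 in control replicates 1 to 4 and 1.2169, 0.5088, 0.2842 and 1.0924 in dcKO replicates 1 to 4. The highest value was that of a control and the lowest that of a dcKO library, and the genotypes overlapped. The control mean was 0.736 ± 0.456 (SD, n = 4) and the dcKO mean 0.776 ± 0.450 (SD, n = 4), which differed by 0.039 (two-sided exact permutation test, p = 0.971). Regions with a peak numbered 3578 ± 1944 (SD, n = 4) per control and 3784.5 ± 2158 (SD, n = 4) per dcKO library (exact permutation test, p = 0.971). A design of 4 against 4 libraries cannot give a p below 0.0286. Among high-share libraries, those keeping over 30% of tags, controls averaged 0.458 and dcKO 0.688, and among the others controls averaged 1.01 and dcKO 0.863, so the direction was not the same in both kinds. The high-share dcKO mean joins 0.2842 in replicate 3 and 1.0924 in replicate 4, which kept only 32.8% of its tags. Without control replicate 3 and dcKO replicate 2, which stood apart, and with 8362 regions merged anew from the other 6 libraries, dcKO exceeded control by 0.141 (exact permutation test, p = 1). Relative to promoter regions of the same library, the short intergenic regions were lower in dcKO by -0.21, which the spread also covered (exact permutation test on 4 against 4 libraries, p = 0.543).

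No single short intergenic region passed the test. In limma, 0 of 10110 were higher in dcKO at an unadjusted p under 0.01, where the background over all 20496 regions was 0.00976%, and 0 were lower, where it was 0.0%. None (0) had an adjusted p under 0.05, and 30 had an unadjusted p under 0.05, against a background of 0.254%. Over the 8362 regions merged without control replicate 3 and dcKO replicate 2, 8 were higher at an unadjusted p under 0.01, near the background of 0.106% of 17879 regions, and 0 were lower, where it was 0.0%, and 0 had an adjusted p under 0.05. A higher dcKO mean was found in 5451 regions (53.9%), below the background of 59.8%, and in 72.9% of promoter regions. The share of short intergenic regions was 60.5% among the 539 with a peak in 6 or more libraries and 70.5% (91 of 129) among those with a peak in all 8. For regions of every class with a peak in 6 or more libraries it was 73.0%. The share over the short intergenic regions turned with the setting. It was 41.9% after the median of each library was subtracted, and 40.6% without control replicate 3, 40.5% without control replicate 2 and 37.7% without control replicate 4, so no direction is drawn from it.

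Regions in which the genotypes did not overlap were few, and those named here were picked for that pattern, so their values are a description with no test. There were 15 (0.15%) with every dcKO value above every control value, where the background was 0.195%, and 6 (0.06%) with every dcKO value below, where it was 0.0342%. Among them, peaks in all dcKO and no control libraries occurred in 3 regions (0.03% of the short intergenic regions), and so did the opposite (0.03%). For this last pattern a share over all regions is not given, so nothing is read from its counts. The first, near the potassium channel gene Kcnk9 (chr15:72567209-72568894), had 4.64, 6.15, 3.73 and 5.64 in dcKO replicates 1 to 4 and no peak in controls. The region near Mreg (chr1:72223833-72226245) had 3.81, 5.01, 3.73 and 4.47 in dcKO, and that near Cops8 (chr1:90597748-90599969) had 3.32, 4.11, 3.52 and 3.82. The 3 regions with the opposite pattern lay near Slc36a1, Ccdc130 and Map3k1, with control values between 3.17 and 5.8. A library without a called peak enters as 1, so any signal below the calling limit is not seen in these contrasts. Each genotype also had 1 pooled input of its own, so a difference between inputs cannot be told apart from one between genotypes.

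One of the 15 had a peak in every library. The region near the mitochondrial carrier gene Slc25a33 (chr4:149808325-149811788, 3464 bp) had 6.35, 2.91, 3.43 and 2.95 in control replicates 1 to 4 and 7.66, 7.91, 9.39 and 11.79 in dcKO replicates 1 to 4. Every dcKO library was above every control, the pattern for which it was picked. A shorter region of 517 bp next to it (chr4:149817524-149818040), which overlaps the 5S ribosomal RNA gene n-R5s193 and the miRNA gene Gm47301, had 9.28, 3.18, 4.51 and 2.86 in controls and 11.87, 8.43, 4.93 and 13.69 in dcKO, with overlap. The RNA of Slc25a33 was at 8.325 to 9.363 CPM in controls and at 7.606 to 9.227 CPM in the libraries labelled dcKO (log2 fold change -0.09, SE 0.11, adjusted p = 0.742, edgeR; without the library labelled dcKO replicate 2, -0.15, SE 0.12, adjusted p = 0.467).

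The 129 regions with a peak in all 8 libraries had moderate heights. Their median fold enrichment was 6.03, 3.86, 5.43 and 3.76 in control replicates 1 to 4 and 6.0, 5.15, 4.12 and 5.26 in dcKO replicates 1 to 4. Libraries that kept few tags gave the higher values, except that dcKO replicate 4 exceeded dcKO replicate 2. The highest median of a region, 15.4, was found at chr8:12129941-12136312, 142507 bp from A230072I06Rik, with 41.97, 4.11, 21.68 and 3.74 in controls and 40.87, 21.98, 4.1 and 9.03 in dcKO. This region was 60.5% masked and its observed to expected CpG ratio was 0.101. The Jak1 region had 29.23, 2.82, 19.33 and 2.85 in controls and 24.68, 16.62, 3.72 and 13.92 in dcKO. In both, the 2 controls and the dcKO library with the largest share of tags kept had 4.11 or less. In dcKO replicate 4, which kept 32.8% of its tags, the values were 9.03 and 13.92.

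The CpG-dense regions at Gm21321 and Nr4a2 differed less between libraries than these repeats. The Gm21321 region had 11.47, 5.05, 10.84 and 4.1 in controls and 13.97, 11.94, 4.7 and 12.02 in dcKO. The region 6700 bp from Nr4a2, which encodes a nuclear receptor of midbrain dopamine and cortical subplate neurons, had 12.1, 4.99, 11.08 and 4.67 in controls and 15.8, 9.7, 5.18 and 7.56 in dcKO. Its log2 fold change was 0.24 (SE 0.54, adjusted p = 1.0, limma) and the genotypes overlapped. Nr4a2 RNA was at 77.67 to 93.12 CPM in controls and at 109.1, 76.4 and 84.46 CPM in the libraries labelled dcKO replicates 2, 3 and 4. The lowest CpG ratio of the 129, 0.024, was that of the Cacna2d3 region, which had 20.69, 3.2, 9.71 and 3.95 in controls and 19.21, 8.01, 4.28 and 13.03 in dcKO, and the highest, 1.07, was that of a region of 671 bp 265948 bp from Cntnap2. A region on chromosome 17 (chr17:39842863-39849020) covers the annotated ribosomal RNA sequence of Gm42418, Gm26917 and AY036118, had a CpG ratio of 0.967 and had 9.25, 1.97, 5.61 and 1.5 in controls and 22.12, 4.57, 4.42 and 12.9 in dcKO. Ribosomal DNA exists in many copies that the assembly does not hold, so its enrichment over input is uncertain. Including this region, 10 short intergenic regions shared over 5% of their 20-base words with it.

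**Figure D5:**
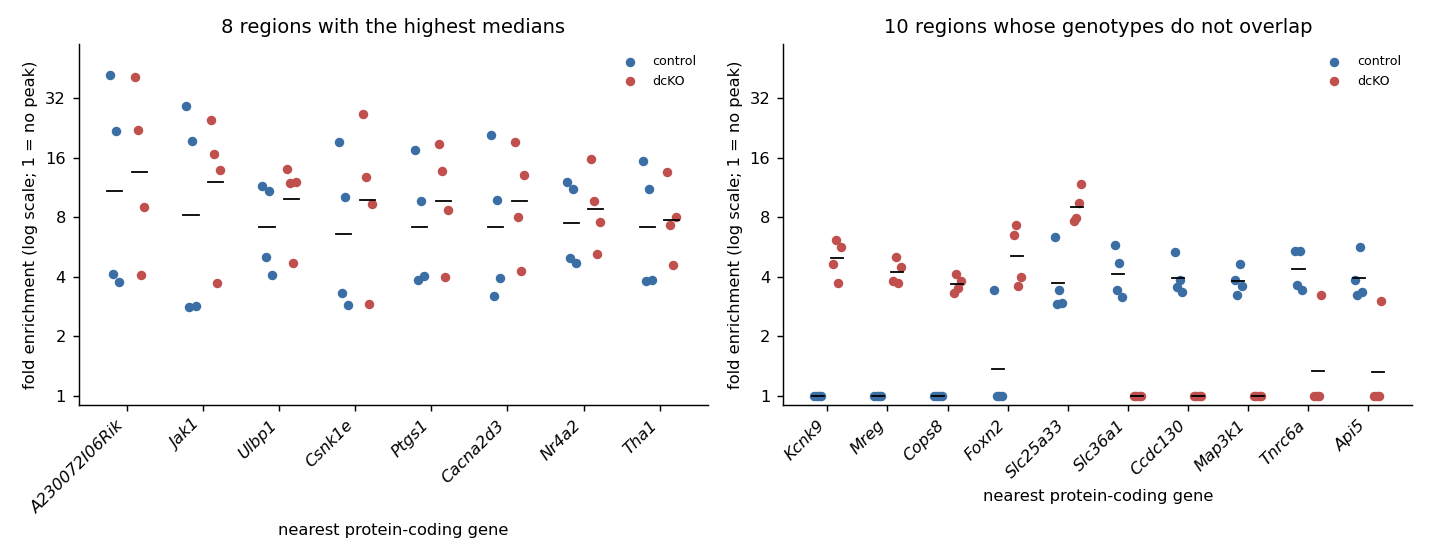
Fold enrichment over input on a log scale (y axis, 1 where a library had no peak) in 4 control (blue) and 4 dcKO (red) libraries, with the mean of the log values as a black line, for the 8 regions with the highest median over all libraries (left) and for 10 regions whose genotypes do not overlap (right), named by the nearest gene. On the left the genotypes overlap in every region, and on the right the Slc25a33 region had a peak in every library.

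Some regions lay on start sites of non-coding genes. The start of a lncRNA lay in 2.29% of the short intergenic regions, in 9.13% of promoter regions and in 1.08% of gene-body regions. Among regions with a peak in all 8 libraries these included Lncpint with 2210408F21Rik, a p53-induced lncRNA locus (chr6:31216183-31222661), where controls had 16, 5.54, 5.22 and 5.16 and dcKO 13.47, 3.72, 5.06 and 8.16. The region on Gm34785 near Dio3 (chr12:110184177-110194092), in the imprinted Dlk1-Dio3 domain, had 6.89, 5.24, 5.28 and 5.04 in controls and 6.0, 6.48, 5.6 and 12.55 in dcKO. In each, dcKO and control values overlapped. Of 237 lncRNAs that start in a short intergenic region, 102 were counted in the untreated libraries and 26 had counts high enough to be tested. At an unadjusted p under 0.01, 1 of the 26 was lower and 0 were higher, where the background over all genes tested was 2.8% and 2.66%. That lncRNA, Gm38399, was at 0.5458, 1.063, 1.067 and 1.174 CPM in controls and at 0.3355, 0.3406 and 0.4035 CPM in the libraries labelled dcKO (log2 fold change -1.39, SE 0.35, adjusted p = 0.143, edgeR; without the library labelled dcKO replicate 2, -1.36, SE 0.40, adjusted p = 0.0502). Its region (chr1:135685051-135688942) had a peak in 6 libraries. The count of RNA-seq was taken without a stated strand, so antisense genes cannot be told from their partners.

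Small RNA genes lay under 27 regions, which overlapped 32 annotated miRNA genes, and 14 of these matched 24 mature sequences in RefSeq. A miRNA pairs with its targets mainly through the seed, bases 2 to 8, which is in capitals in the RNA sequences that follow, 5′ to 3′. They are a selection, taken because their host regions had a peak in 6 or 7 libraries or because the miRNA gene is a known neuronal one. Other sequences that met these limits are not shown, among them mmu-miR-137-3p, the other mature sequence of Mir137.
mmu-miR-129-5p: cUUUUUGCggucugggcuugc
mmu-miR-129-2-3p: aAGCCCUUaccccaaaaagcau
mmu-miR-129b-5p: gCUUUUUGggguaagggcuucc
mmu-miR-129b-3p: cAAGCCCAgaccgcaaaaagauu
mmu-miR-1897-3p: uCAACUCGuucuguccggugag
mmu-miR-193a-3p: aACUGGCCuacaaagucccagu
mmu-miR-203-3p: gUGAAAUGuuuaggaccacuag
mmu-miR-7b-5p: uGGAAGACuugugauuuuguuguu
mmu-miR-137-5p: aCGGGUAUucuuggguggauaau

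Mir129-2 and Mir129b lie on opposite strands of the same DNA (chr2:94241364-94241453 on the minus and chr2:94241378-94241442 on the plus strand). Both are inside a region of 9579 bp (chr2:94237738-94247316) that also holds the start of the lncRNA Mir670hg. None of the 9 seeds shown was shared. The region had 4.83, 5.22, no peak and 5.79 in control replicates 1 to 4 and 4.61, 4.01, 4.89 and 8.26 in dcKO replicates 1 to 4 (log2 fold change 0.59, SE 0.78, adjusted p = 1.0, limma). Only control replicate 3, which stood apart, lacked a peak. The RNA of Mir670hg was at 4.24 to 5.491 CPM in controls and at 4.698 to 5.525 CPM in the libraries labelled dcKO. Mir1897 lies in the lncRNA Sox2ot, in a region (chr3:34638179-34646735) whose edge is 3670 bp from the TSS of the neural progenitor gene Sox2 and which had 3.37, 4.08, no peak and 4.17 in controls and 4.14, 4.82, 4.41 and 7.65 in dcKO. The regions of Mir193a, Mir203 and Mir124a-3 had a peak in 6 libraries and lacked one in control replicate 3 and dcKO replicate 2. Mir137 and Mir7b had weaker support, with peaks in 2 and 4 libraries. Mature miRNAs were not measured, so the values are those of the chromatin alone.

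Some tested enhancers overlapped the regions. Of 617 autosomal VISTA enhancers in the RefSeq annotation, which were tested in transgenic mouse embryos, 333 met the same distance and gene limits, and 25 (7.5%) overlapped a short intergenic region. Of the 93 active in forebrain, 10 (10.8%) overlapped, and of the other 240, 15 (6.2%). The overlap to be had from the length of the regions alone was not computed, so these shares are descriptions. The enhancer mm1542 near Xkr6 is active in forebrain and other neural tissue. The region that overlaps it (chr14:63581836-63588043) had 5.13, 3.66, 6.63 and 3.5 in controls and 6.51, 7.39, 3.71 and 3.97 in dcKO. The region that overlaps the limb and heart enhancer mm1211 near Irx3 (chr8:91707889-91715472) had 3.4, 3.86, 4.64 and 3.72 in controls and 3.82, 4.14, 4.12 and 4.56 in dcKO. Both regions had a peak in all 8 libraries, with overlapping genotypes. The values are the highest in each region and may lie outside the enhancer.

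Genes nearest to short intergenic regions were then followed in RNA-seq. The 4763 nearest genes included 3279 that passed the filter on low counts in untreated pallium. At an unadjusted p under 0.01 in edgeR, 111 (3.39%) of these stood higher in the libraries labelled dcKO and 135 (4.12%) stood lower, against a background of 2.66% and 2.8% of 15770 genes tested and 2.78% and 2.98% of the protein-coding ones on autosomes. None (0) had an adjusted p under 0.05, and 640 had an unadjusted p under 0.05. Without the library labelled dcKO replicate 2, 322 (9.7%) were higher and 373 (11.2%) lower at that limit, and 283 and 330 at an adjusted p under 0.05, where the shares of all 16024 genes tested were 6.58% and 8.06% at the first limit and 5.57% and 6.88% at the second. The median control level of the nearest genes was 2.137 RPKM (reads per kilobase of exon, scaled to library size), against 1.918 RPKM for all protein-coding genes. Neurod6, which marks cortical projection neurons, was at 690.0 to 949.5 CPM in controls. In the libraries labelled dcKO replicates 2, 3 and 4 it was at 1024.0, 298.4 and 377.3 CPM. Replicates 3 and 4 were thus below every control, and replicate 2 was above every control. The log2 fold change with all libraries, which joins these values, was -0.5 (SE 0.42, adjusted p = 0.62, edgeR). The part of Neurod6 in these counts was not tested.

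Of the nearest genes on the 5 lists, transcription factors and secreted signals included genes that were higher and none that were lower. At an unadjusted p under 0.01, where the background was 2.66% higher and 2.8% lower, 7 of 98 developmental transcription factors tested were higher and 0 were lower, and among factors of the list nearest to no such region the counts were 6 and 0 of 58. Among 38 secreted signals and antagonists they were 6 and 0, and 5 and 0 of 35 nearest to no region. Axon guidance and cadherin genes gave 6 higher and 5 lower of 66, receptor and channel genes 3 and 5 of 77, and olfactory, vomeronasal and taste receptor genes 0 of 1 tested. Those nearest to no region gave 0 and 2 of 71 for axon guidance and cadherin genes and 1 and 6 of 96 for receptor and channel genes. As over all protein-coding genes on autosomes, none (0) of the listed genes tested had an adjusted p under 0.05 with all libraries. The differences between genes near and not near a region were not tested. Without the library labelled dcKO replicate 2, where the background was 6.58% higher and 8.06% lower, the transcription factors gave 30 higher and 11 lower of 104, so the absence of lower genes rests on that library. At an adjusted p under 0.05 in that setting, where the background was 5.57% and 6.88%, 27 transcription factors were higher and 11 lower, and 9 of 38 secreted genes were higher and 3 lower. Axon guidance and cadherin genes then gave 15 higher and 8 lower of 66, and receptor and channel genes 4 and 14 of 77.

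The secreted genes that were higher include the Wnt antagonists Dkk1, Dkk2 and Sfrp2 and the Notch ligands Jag1 and Dll1. Dkk1 was at 0.042, 0.0886, 0.0356 and 0.1806 CPM in the controls and at 1.174, 0.6055 and 1.614 CPM in the libraries labelled dcKO replicates 2, 3 and 4. All 3 were above all 4 controls, at a low level (log2 fold change 3.67, SE 0.55, adjusted p = 0.0801, edgeR; without replicate 2, 3.65, SE 0.60, adjusted p = 0.00309). Its region (chr19:30539194-30544173, 4980 bp, 5492 bp from the TSS), with the CpG-dense window printed above, had 6.37, 3.58, no peak and 3.81 in control replicates 1 to 4 and 5.55, 3.4, 4.21 and 6.57 in dcKO replicates 1 to 4 (log2 fold change 0.65, SE 0.83, unadjusted p = 0.436, limma). The H3K27me3 values overlapped where the RNA values did not. Without the RNA library labelled dcKO replicate 2 the adjusted p was 0.00855 for Dkk2, 0.0117 for Jag1 and 0.0053 for Dll1. Sfrp2 RNA was at 11.24 to 16.74 CPM in controls and at 17.28, 18.5 and 19.57 CPM in the libraries labelled dcKO (log2 fold change 0.46, SE 0.14, adjusted p = 0.181, edgeR; without replicate 2, 0.50, SE 0.15, adjusted p = 0.0606). The region near it (chr3:83788474-83790326) had a peak in all 8 libraries, at 7.98, 4.53, 6.01 and 4.43 in controls and 5.77, 4.33, 3.73 and 7.27 in dcKO.

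The transcription factors higher at that limit included Tfap2c, Pou4f1, Shox2, Insm2, Pax6 and Nr2f1. Shox2, a homeobox gene of limb, heart and thalamic progenitors, was listed at 0.0 CPM in all 4 controls and at 1.762, 11.05 and 8.313 CPM in the libraries labelled dcKO replicates 2, 3 and 4, at least 228-fold higher with a floor of 3 counts over the control group (unadjusted p = 0.00208, adjusted p = 0.142, edgeR; adjusted p = 1.48e-05 without replicate 2). Of its 11 nearest regions, the one with the most libraries (chr3:66729139-66733093) had peaks of 4.4 and 4.43 in control replicates 2 and 4 and of 4.12, 3.66 and 4.63 in dcKO replicates 2, 3 and 4. Tfap2c, a factor of basal progenitors and other ectoderm, was at 12.68 to 19.77 CPM in controls and at 26.09, 45.75 and 50.56 CPM in dcKO (log2 fold change 1.45, SE 0.24, adjusted p = 0.0964, edgeR; without replicate 2, 1.68, SE 0.16, adjusted p = 0.000193), and its region with the most libraries had a peak in 3 controls and 2 dcKO libraries. Pax6, the regulator of cortical radial glia, was at 44.74 to 62.04 CPM in controls and at 63.59, 69.51 and 73.64 CPM in dcKO (log2 fold change 0.45, SE 0.11, adjusted p = 0.146, edgeR; without replicate 2, 0.51, SE 0.12, adjusted p = 0.0254). Without that library the adjusted p was 0.000226 for Pou4f1, 0.000702 for Insm2 and 0.00254 for Nr2f1. The regions described for Shox2 and Tfap2c lay 245354 and 174704 bp from the TSS and were not chosen by distance. Since 0 of all 10110 short intergenic regions passed an unadjusted p under 0.01 in limma, that limit cannot set the regions near these genes apart.

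Over all nearest genes, the smallest p of the higher genes belonged to the antiproliferative gene Tob1, the lysine catabolism gene Aass, the Wnt receptor gene Fzd1, Dkk1 and Dhrs1. Fzd1 was at 51.11 to 59.47 CPM in controls and at 76.92, 73.64 and 80.5 CPM in the libraries labelled dcKO (log2 fold change 0.48, SE 0.07, adjusted p = 0.0749, edgeR), and its 2 regions, 257397 and 156273 bp away, had peaks in control replicate 1 and dcKO replicate 1 only. Tob1 was at 31.09 to 35.2 CPM in controls and at 47.65, 53.02 and 57.26 CPM in dcKO, and its region was 83.5% masked with a peak in 4 libraries. The lower genes were Mtus2, Frem2, Scd1, Atxn1 and Emp2. Mtus2, a microtubule-associated gene, was at 49.91 to 52.87 CPM in controls and at 36.41, 39.2 and 38.9 CPM in dcKO (log2 fold change -0.44, SE 0.06, adjusted p = 0.0749, edgeR). Scd1, which makes monounsaturated fatty acids, was at 44.08 to 63.75 CPM and at 33.97, 29.36 and 28.81 CPM (log2 fold change -0.76, SE 0.13, adjusted p = 0.0829, edgeR). Without the library labelled dcKO replicate 2 the log2 fold change was 0.48 for Fzd1 (SE 0.08, adjusted p = 0.00236), 0.73 for Tob1 (SE 0.08, adjusted p = 0.000245), -0.41 for Mtus2 (SE 0.07, adjusted p = 0.00307) and -0.83 for Scd1 (SE 0.13, adjusted p = 0.00374). Apart from the Dkk1 region, the regions nearest to these genes had peaks in 2 to 4 libraries.

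In the treated experiment, edgeR with an adjusted p under 0.05 called 0 of 3296 nearest genes tested higher in dcKO vehicle than in WT vehicle. It called 0 lower, where the background was 0.00611% higher and 0.0% lower of 16372 genes. An unadjusted p under 0.05 was found for 439 nearest genes and for 1390 of 13629 protein-coding genes tested on autosomes. At an adjusted p under 0.05, DESeq2 called 24 higher (0.728%) and 14 lower (0.425%), against 0.519% and 0.214% of all genes. Without the library labelled dcKO vehicle replicate 2, whose targeted genes were at the WT level, 71 (2.15%) of 3310 nearest genes passed an adjusted p under 0.05 with a higher and 102 (3.08%) with a lower level, against 1.34% and 2.06% of all 16526 genes.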

How the data were processed

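H3K27me3 ChIP-seq peak lists of 8 libraries and RNA-seq gene counts of 19 libraries were used. Alignment to mm10 was done by the authors with STAR, and broad peaks were called in each library with MACS2 2.1.0.20140616 (q 0.1, duplicates reduced to 1 tag) against the pooled input of the group. For a peak, the deposited lists hold its fold enrichment (a ratio to input), its pileup signal and the −log10 of its q-value. The deposited counts are raw reads per gene from featureCounts. No reads were processed here, and depth was read from the file headers and count totals: libraries kept 2420911 to 28335352 ChIP tags and held 11946658 to 28391046 counts in RNA-seq.

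Regions were assigned with GENCODE on GRCm38, and sequences were read from RefSeq GRCm38.p6 with pysam 0.24.0. log2 fold enrichment of all 20496 regions was fitted with limma 3.58.1 (trend, robust). A library without a peak enters as 1, which hides weak signal. Counts were fitted with edgeR 4.0.16 (TMM, filterByExpr, quasi-likelihood, robust), with DESeq2 1.42.0 as an alternative, in R 4.3.3, with Benjamini-Hochberg adjustment over all features. CPM are TMM-scaled, and RPKM use the exon length of a gene. Library means were compared by two-sided exact tests in scipy 1.17.1. The scripts were tested on simulated data. H3K4me2 was not analysed here.

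The regions, the gene lists (matched by symbol) and the tests were chosen with earlier results of these data known. Regions named are those with the highest median fold enrichment in all 8 libraries, with non-overlapping genotypes and the smallest p, on non-coding starts or miRNA genes, at the limits of the definition, or with extreme CpG content. Genes named are the nearest genes of these regions, the 5 nearest to the most regions, the 5 per direction with the smallest p, the targeted genes and the tissue markers, some of which are not reported here. List members past the limit, enhancers, and other regions marked in the text were chosen after their values were seen. Regions farthest from a TSS were also listed and are given as other observations. Nothing states whether replicates are separate litters, so p-values measure the spread between libraries only. Alternatives changed the peak limit, the overlap, the length, the distance, the number of libraries, the unit, the centring, the block, the count model and each library in turn.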

Additional observations from a re-analysis of the deposited data

Results flagged for a closer look

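Each group of 4 libraries was examined for 1 library far from the other 3, in 85 groups of values of named regions and genes, and 8 stood out. Chance gives about 1 such group in 20. The region nearest to Slc25a33 (chr4:149808325-149811788) had 6.35 in control replicate 1, against 2.91 to 3.43 in the other controls. The region on Gm34785 near Dio3 had 6.89 in control replicate 1, against 5.04 to 5.28, and 12.55 in dcKO replicate 4, against 5.6 to 6.48. The Lncpint region near Mkln1 had 16 in control replicate 1, against 5.16 to 5.54. In RNA-seq, Ajap1, which is nearest to 24 regions, was lowest in WT vehicle replicate 3 at 9.253 CPM, against 14.09 to 14.61, and in the library labelled dcKO vehicle replicate 2 at 7.475 CPM, against 17.85 to 19.75. The targeted genes were highest in that same library, Smarcc1 at 242.3 CPM against 133.0 to 138.0 and Smarcc2 at 691.1 CPM against 424.6 to 438.6. Control replicate 1 kept 13.7% of its tags, and the part of this share in its high values was not tested.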

How the results depend on the processing

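A library without a peak enters as no enrichment, so weak signal is not detectable. Of the values recomputed, 93 kept direction and side of the limit, 14 reversed, 20 counts moved and 3 lost a call. Of further settings chosen after seeing the data, 13 kept both, 1 moved and 3 lost a call. Regions past an unadjusted p under 0.01 numbered 0 as reported, 3 with peaks in at least 3 libraries, 1 with an overlap of 200 bp, 7 with the pileup, 6 with the replicate block, 7 with the kind of library as a block, 0 to 8 with each library left out (8 without control replicate 1) and 8 without control replicate 3 and dcKO replicate 2. The share with a higher dcKO mean was 41.9% after centring and 37.7% to 70.1% with each library left out (40.5%, 40.6% and 37.7% without control replicates 2, 3 and 4). The difference in mean log2 fold enrichment was -0.016 after centring and -0.083 to 0.284 with each library left out, reversing without control replicate 2 (-0.046) or 4 (-0.074) or dcKO replicate 1 (-0.083) or 4 (-0.052). That in regions with a peak was -296 to 937, reversing without the same libraries (-82.2, -244, -182 and -296), and that relative to promoters -0.452 to 0.0127, reversing without control replicate 3. The height against gene-body regions lost its call with q under 0.01 (-0.0079), 3 libraries (-0.0103), high-share regions (-0.0074), 1000 to 2000 bp (-0.0113) and without control replicate 3 and dcKO replicate 2 (-0.0102). With each library left out it was -0.0189 to -0.0098, and the call was lost without dcKO replicate 1 (-0.0111). Nearest genes past the limit in untreated RNA-seq numbered 246 as reported, 93 with the replicate block, 157 within 50000 bp and 81 to 695 with each library left out (152 and 160 without control replicates 2 and 4, 695, 107 and 81 without the libraries labelled dcKO replicates 2, 3 and 4). In the treated experiment they numbered 0 as reported, 38 with DESeq2, 2 with the replicate block and 0 to 173 with each library left out, the highest in both without the library whose targeted genes were at the control level. The causes were not tested.

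Same-numbered control and dcKO libraries share only a number. Their deviations correlated by -0.265 to 0.573 for H3K27me3, and 1 of 4 correlated best with its own number. For RNA-seq they correlated by 0.004 to 0.492 (treated) and -0.373 to -0.047 (untreated).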

Other observations

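Some regions with a peak in 6 or more libraries lay far from any gene. The farthest, chr1:122356972-122357444, was 788983 bp from the TSS of Ddx18 and had 9.71, 3.49, 5.06 and 2.98 in control replicates 1 to 4 and 14.02, no peak, 3.8 and 10.71 in dcKO replicates 1 to 4. A region of 451 bp at chr3:4338857-4339307, 704707 bp from Hnf4g, overlaps the 5S ribosomal RNA gene n-R5s194 and had 9.13, 5.43, 7.27 and 4.59 in controls and 7.55 and 6.53 in dcKO replicates 1 and 4. The region at chr6:109505086-109505669, 652695 bp from Edem1, had an observed to expected CpG ratio of 0.893 and a peak in 7 libraries. The region 542674 bp from Pkhd1 (chr1:19863062-19866774) had 3.57, 3.81, 6.14 and 3.8 in controls and 5.1 and 4.95 in dcKO replicates 1 and 2. Of the 5 farthest, those near Ddx18, Edem1 and Hnf4g measured 473, 584 and 451 bp, and the others, near Galr1 and Pkhd1, 3305 and 3713 bp.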
